A study of Mus musculus with 6 samples.

Results

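The 10 genes described here, Car1, Car2, Ermap, Aqp1, Cd36, Blvrb, Mfsd2b, Tspo2, Rhag and Rhd, are markers of early commitment to the red cell lineage. They were taken by name as a fixed list, and all 10 were found among the 55487 gene identifiers of the count table. Expression was measured by sequencing polyadenylated RNA in bulk from megakaryocyte-erythroid progenitors, a bone marrow population from which red cells and platelets are formed. Both groups consisted of wild-type C57BL/6 mice aged 8 weeks. The control group (3 libraries) received no labelled treatment, and the fasted group (3 libraries) had been without food for 6 h. The study asked how fasting acts on the formation of red cells. The labels do not give the sex of the mice, the sorting gate, or whether a library came from 1 mouse or from a pool, and their extraction text describes ground tissue, so p-values measure only the spread between these libraries.

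As a progenitor commits to the red cell lineage, it starts to make the membrane channels, transporters and cytosolic enzymes that the mature cell will use to carry gas. Carbonic anhydrases interconvert carbon dioxide and bicarbonate in the cytosol, aquaporin-1 passes water, and the Rh proteins form a membrane complex that contributes to gas or ammonium transport and to the attachment of the membrane to its skeleton. These genes are regulated in part by GATA1 and KLF1, transcription factors that bind GATA and CACCC motifs. Several of them mark the lineage in progenitors well before haemoglobin accumulates.

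The promoter windows of Rhag, Rhd and Ermap are shown because each has a GATA-type motif within 70 bases upstream of the annotated start, and because Rhag and Rhd encode partners in 1 complex. Each window runs from 250 bases before to 50 bases after the start in RefSeq (GRCm38.p6), is written 5′ to 3′ on the strand of the gene, and has the motif in capitals. The windows are chr17:40810899-40811198 on the plus strand for Rhag, chr4:134864286-134864585 on the plus strand for Rhd and chr4:119189946-119190245 on the minus strand for Ermap.
Rhag: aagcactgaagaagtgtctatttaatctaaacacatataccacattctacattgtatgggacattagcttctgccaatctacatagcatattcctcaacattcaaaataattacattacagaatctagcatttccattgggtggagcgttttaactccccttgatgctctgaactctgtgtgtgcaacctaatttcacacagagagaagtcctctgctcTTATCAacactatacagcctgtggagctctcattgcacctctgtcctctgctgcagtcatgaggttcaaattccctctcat
Rhd: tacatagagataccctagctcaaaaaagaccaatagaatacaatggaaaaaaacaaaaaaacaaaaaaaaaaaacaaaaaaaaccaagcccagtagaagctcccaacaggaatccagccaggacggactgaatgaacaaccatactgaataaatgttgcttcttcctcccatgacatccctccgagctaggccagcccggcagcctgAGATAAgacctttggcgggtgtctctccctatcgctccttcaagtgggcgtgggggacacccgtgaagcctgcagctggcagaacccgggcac
Ermap: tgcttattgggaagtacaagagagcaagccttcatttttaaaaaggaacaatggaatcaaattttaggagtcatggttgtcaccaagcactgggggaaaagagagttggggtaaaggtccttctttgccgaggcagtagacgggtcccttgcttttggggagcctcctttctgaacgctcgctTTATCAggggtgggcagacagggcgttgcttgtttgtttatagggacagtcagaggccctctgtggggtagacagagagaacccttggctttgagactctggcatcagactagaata
The motif was searched on both strands as any of the spellings AGATAA, or AGATAG, or TGATAA, or TGATAG. It lay at positions -31 to -26 from the start in Rhag, -43 to -38 in Rhd and -67 to -62 in Ermap. Of the 10 genes, 8 had a window in the table, Car1 and Car2 being the ones without, and 4 of these 8 held the motif, the other one being Blvrb in the second of its 2 windows. Of all 32851 promoter windows of the same length, 29.8% held it. A CACCC-type motif, searched as CCNCNCCC on both strands, was present in 5 of the 8 genes (Aqp1, Blvrb, Mfsd2b, Rhd and Tspo2) and in 49.5% of all windows. An NF-E2-type motif, TGANTCA, was in 0 of the 8 and in 7.81% of all windows. These matches describe the letters in the windows only.

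Sequencing depth and a low background bear on every value below. The control libraries were the deeper ones, with 22445970 to 30246110 gene counts against 12797144 to 18225191 in the fasted group. Genes silent in blood, represented by 1466 odorant and vomeronasal receptor genes, received 8.98 to 16.0 counts per kilobase. Extended over all annotated exons, this rate amounted to 3.90% to 8.58% of the counts in the control libraries and 11.5% to 14.6% in the fasted libraries. Scaling between libraries by the trimmed mean of M-values (TMM) over all 36508 tested genes placed the median log2 fold change of the 10648 genes at or above 5 times this background at -0.50. For that reason each member is given in 2 fits of edgeR's quasi-likelihood test, fasted against control. The all-gene fit used 36508 genes, and the fit of genes above background used only the 10648 genes, with their own scaling, under which their median was 0.02. Called means a Benjamini-Hochberg adjusted p under 0.05 over all genes of the fit. Normalised read counts (CPM) are scaled as in the all-gene fit unless the other scale is named.

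No member passed the test in either fit. In the all-gene fit 0 of 10 members were called at an adjusted p under 0.05, against 4.97% of all genes tested, and 2 members had an unadjusted p under 0.05 (Cd36 and Mfsd2b), against 28.6% of all genes. Their adjusted p-values ran from 0.126 to 0.954. Of the 10 genes, 7 had a log2 fold change below 0 and 3 above 0, with a median of -0.07. In the fit of genes above background 0 of the 9 members present were called, where the test called 0% of all genes, and 1 member, Rhag, had an unadjusted p under 0.05, against 19.9% of all genes. Adjusted p-values there ran from 0.228 to 0.986, and 8 of the 9 log2 fold changes were above 0, with a median of 0.48. Among all genes of that fit 52.3% were above 0 and 18.1% exceeded 0.48. DESeq2 and limma-voom on the same genes called 501 and 0 genes, and neither called a member.

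**Figure D1:**
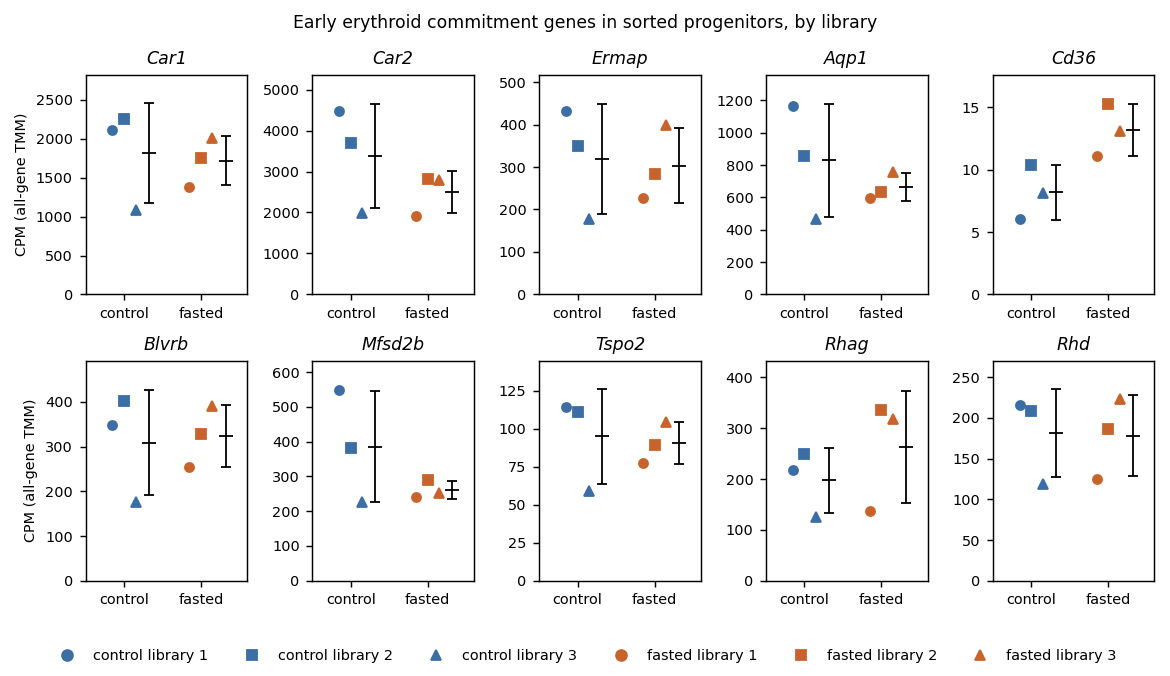
CPM of the 10 genes in each library (all-gene TMM scaling, linear axes from 0), with the mean and SD of each group of 3 libraries beside the points. Control library 3 is the lowest of the 6 libraries in 8 of the 10 panels, and only Cd36 has groups that do not overlap.

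Most members were lowest in the same library. Control library 3 had the lowest CPM of the 6 libraries for 8 of the 10 genes, and it was the lowest of the control libraries for 9, Cd36 being the exception. With the scaling of genes above background it was the lowest of the 6 for all 9 members of that fit, and fasted library 3 was the highest for 8 of these 9, Mfsd2b being the exception. Centred on the 6 libraries, the mean log2 level of the 9 genes on that scale was -0.02, 0.07 and -0.71 in the control libraries 1, 2 and 3. It was -0.11, 0.19 and 0.58 in the fasted libraries 1, 2 and 3, so the groups overlapped. The share of all genes lowest in control library 3 was not computed. A list of 28 other early erythroid genes, described below, also had its lowest sum there, at 3923 CPM and at 3712 CPM on the scale of genes above background.

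Genes of the granulocyte and monocyte lineage differed between the same libraries by more than the members did. The 15 listed genes, which include the granule protein genes Mpo and Elane, summed to 4896, 13779 and 18752 CPM in the control libraries 1, 2 and 3 and to 3689, 2862 and 1509 CPM in the fasted libraries 1, 2 and 3. On the scale of genes above background the sums were 3551, 11666 and 17741 CPM for the controls and 4450, 3115 and 1939 CPM for the fasted libraries, so control library 1 lay below fasted library 1 and the groups overlapped. On both scales the highest sum was in control library 3, where most members were lowest. All 15 were at or above 5 times the background, none was at 0, and 3 passed in the all-gene fit (Csf3r, Lyz2 and Cebpe, all lower, as were 3.82% of all genes). In the fit of genes above background 0 of the 15 were called, where the test called 0% of all genes. There 0 of the 15 log2 fold changes were above 0, against 52.3% of all genes. Their median was -0.97, against 0.02 over all genes of that fit. The part of the 15 genes in the members' values was not tested. In bulk RNA, fewer cells of a type and less RNA per cell cannot be told apart.

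**Figure D2:**
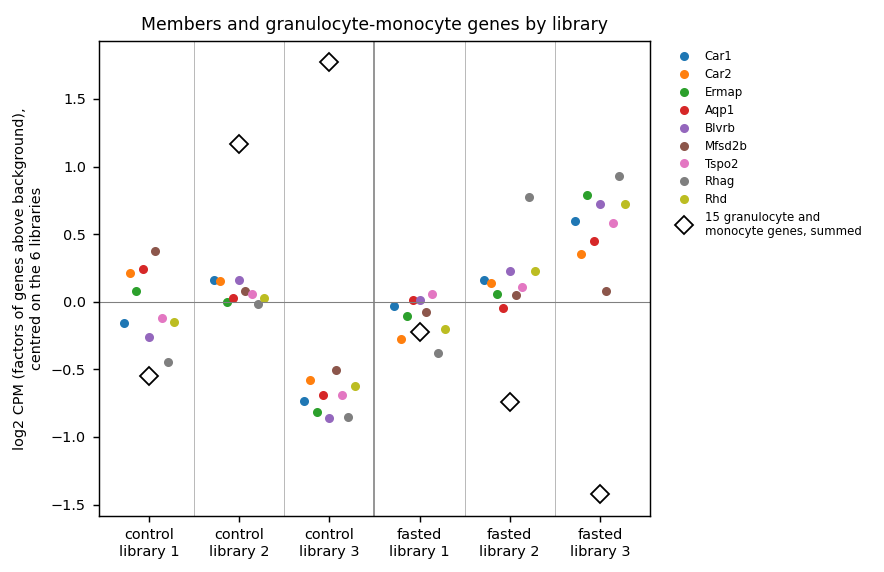
Log2 CPM of 9 members (coloured points) and of 15 summed granulocyte and monocyte genes (open diamonds) in each library, scaled on the genes above background and centred on the 6 libraries. Control library 3 has the lowest members and the highest diamond, and fasted library 3 the reverse, with Mfsd2b near 0.

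The carbonic anhydrases were the most abundant members. Car1 (ENSMUSG00000027556.15, chromosome 3, 14766216 to 14808368, minus strand) and Car2 (ENSMUSG00000027562.12, chromosome 3, 14886273 to 14900770, plus strand) encode cytosolic enzymes of the same family and lie near each other. Coordinates are GRCm38 in GENCODE M21. Per kilobase of exon (RPKM), Car1 averaged 1417 and Car2 1215 over the 6 libraries. By RPKM, Car1 ranked between 7th and 29th and Car2 between 9th and 32nd among all genes of a library.

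Car1 had 2115, 2252 and 1084 CPM in the control libraries 1, 2 and 3 and 1386, 1758 and 2012 CPM in the fasted libraries 1, 2 and 3. The fasted values all lay inside the range of the control values. The fitted log2 fold change was -0.08 (SE 0.26, adjusted p 0.850 in edgeR) in the all-gene fit and 0.47 (SE 0.24, adjusted p 0.318 in edgeR) in the fit of genes above background. Car2 had 4475, 3686 and 1981 CPM in the control libraries and 1913, 2825 and 2781 CPM in the fasted libraries. Its 2 highest values were controls and the groups overlapped through control library 3. The log2 fold change was -0.43 (SE 0.27, adjusted p 0.290 in edgeR) over all genes and 0.12 (SE 0.24, adjusted p 0.797 in edgeR) in the other fit.

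The ratio of 2 genes within a library does not depend on how libraries are scaled. Car1 had 0.473, 0.611 and 0.547 counts for each count of Car2 in the control libraries 1, 2 and 3, and 0.724, 0.622 and 0.723 in the fasted libraries 1, 2 and 3. Each fasted ratio was above each control ratio, though fasted library 2 and control library 2 lay close together. The mean log2 ratio was -0.89 ± 0.19 (SD, n = 3) in control and -0.54 ± 0.13 (SD, n = 3) in the fasted libraries. The difference of 0.35, a 1.27-fold higher ratio, had p = 0.1 by exact permutation of the libraries (two-sided), which is the lowest value possible with 3 against 3, and 0.2 after adjustment over the 2 ratios tested. Without fasted library 1 it was 0.31 and without control library 1 it was 0.25, with p = 0.2 by the same exact permutation test, the smallest that 2 against 3 libraries allow.

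**Figure D3:**
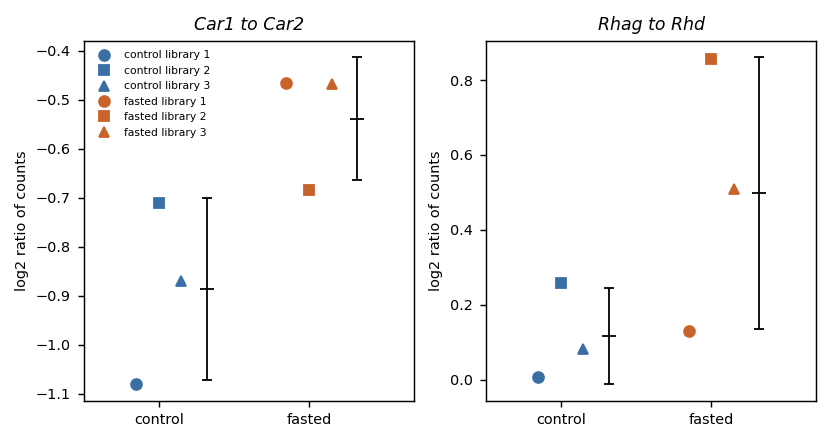
Log2 ratio of Car1 to Car2 counts and of Rhag to Rhd counts in each library, with the mean and SD of each group of 3 libraries. The fasted Car1 to Car2 ratios all lie above the control ratios, and the Rhag to Rhd ratios overlap.

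The Rh pair showed the largest positive difference among the well-expressed members in Rhag. Rhag (ENSMUSG00000023926.8, chromosome 17, 40811126 to 40840754, plus strand) encodes the Rh-associated glycoprotein, which is needed to bring the Rh protein to the membrane. It had 217, 249.9 and 126 CPM in the control libraries 1, 2 and 3 and 137, 337 and 317 CPM in the fasted libraries 1, 2 and 3. Fasted libraries 2 and 3 were above every control library, while fasted library 1 was near the lowest control. The log2 fold change was 0.42 (SE 0.31, adjusted p 0.378 in edgeR) over all genes and 0.94 (SE 0.36, adjusted p 0.228 in edgeR) in the fit of genes above background. The second value is a 1.92-fold difference whose standard error was the widest of the 9 members.

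Rhd (ENSMUSG00000028825.7, chromosome 4, 134864536 to 134896172, plus strand) encodes the Rh blood group protein. It had 216, 209 and 119 CPM in the control libraries and 125, 186 and 223 CPM in the fasted libraries, 1 low library in each group. The fitted log2 fold change was -0.03 (SE 0.26, adjusted p 0.954 in edgeR) over all genes and 0.52 (SE 0.25, adjusted p 0.286 in edgeR) in the other fit. Rhag had 1.01, 1.20 and 1.06 counts for each count of Rhd in the control libraries and 1.09, 1.81 and 1.42 in the fasted libraries. The ratios of fasted libraries 2 and 3 exceeded all control ratios, and that of fasted library 1 fell among them. The mean log2 ratio was 0.12 ± 0.13 (SD, n = 3) in control and 0.50 ± 0.36 (SD, n = 3) in the fasted libraries, p = 0.2 by exact permutation (two-sided) and 0.2 after adjustment. Without fasted library 2 the difference of 0.38 was 0.20.

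The other membrane channels and transporters did not share 1 direction. Aqp1 (ENSMUSG00000004655.5, chromosome 6, 55336432 to 55348555, plus strand), the red cell water channel, had 1164, 858 and 467 CPM in the control libraries 1, 2 and 3 and 595, 635 and 758 CPM in the fasted libraries 1, 2 and 3. The fasted values lay within the control range. The fitted log2 fold change was -0.32 (SE 0.27, adjusted p 0.422 in edgeR) over all genes and 0.24 (SE 0.24, adjusted p 0.591 in edgeR) in the fit of genes above background.

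Mfsd2b (ENSMUSG00000037336.14, chromosome 12, 4862440 to 4874359, minus strand) encodes the transporter that exports sphingosine-1-phosphate from red cells. It had 548, 381 and 227 CPM in the control libraries and 241, 291 and 252 CPM in the fasted libraries. Control libraries 1 and 2 were above every fasted library, and control library 3 was below them all. The log2 fold change was -0.56 (SE 0.27), the lowest of the 10 genes, and its adjusted p in edgeR was 0.167. In the fit of genes above background it was -0.0083 (SE 0.20, adjusted p 0.986 in edgeR). Without control library 3 the all-gene value was -0.85 (edgeR adjusted p 0.0248), a call that 10.3% of all genes also received as lower in that fit. In the fit of genes above background the value without this library was -0.24, edgeR adjusted p 0.389.

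Cd36 (ENSMUSG00000002944.15, chromosome 5, 17781690 to 17888801, minus strand) encodes a fatty acid and lipoprotein receptor that is also made by platelets, macrophages and endothelium. It was the only member below 5 times the background, at 4.27 times, and so was absent from the second fit. It had 137, 232 and 171 counts in the control libraries 1, 2 and 3 and 173, 292 and 250 counts in the fasted libraries 1, 2 and 3, of which the background rate would account for 19.7% to 30.8%. These counts were 6.01, 10.4 and 8.15 CPM in the controls and 11.1, 15.3 and 13.1 CPM in the fasted libraries. The groups did not overlap, as was the case in the same direction for 19.8% of all tested genes. They did not overlap on the other scale either, for which the share of all tested genes was not computed. Among the genes above background, 3.57% had groups apart with fasted higher on the all-gene scale and 14.4% on their own scale, and 47.5% and 13% with fasted lower, against 0 of the 9 members above background in each case. The fitted log2 fold change was 0.69 (SE 0.29, adjusted p 0.126 in edgeR). With the background subtracted it was 0.98, edgeR adjusted p 0.244. With library totals alone it was 1.15 (edgeR adjusted p 0.0360) and with TMM factors of the genes above background 1.17 (edgeR adjusted p 0.0334), calls that 11.8% and 13.6% of all genes also received as higher under those scalings. Of the megakaryocyte and platelet list 7 of 12 genes, and of the endothelial list 3 of 8, were at or above 5 times the background. Their part in the Cd36 values was not tested. Macrophage genes were near the background, with 0 of 9 listed genes at 5 times its level, and so were Slc4a1 and Epb42 of the late erythroid membrane (4.22 and 4.61 times). Both belong to the late erythroblast and reticulocyte list, where 7 of the 9 genes found were at or above 5 times the background. That list summed to 380 to 680 CPM in the control libraries and 404 to 539 CPM in the fasted libraries.

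Among the remaining genes, Ermap (ENSMUSG00000028644.17, chromosome 4, 119175457 to 119190011, minus strand, under another version in M21) encodes the erythroblast membrane-associated protein that carries the Scianna blood group. It had 431, 349 and 178 CPM in the control libraries and 228, 283 and 399 CPM in the fasted libraries, so the groups overlapped fully. The fitted log2 fold change was -0.08 (SE 0.29, adjusted p 0.871 in edgeR) and 0.50 (SE 0.30, adjusted p 0.389 in edgeR) in the all-gene fit and the fit of genes above background. Blvrb (ENSMUSG00000040466.16, chromosome 7, 27447978 to 27466144, plus strand) encodes biliverdin reductase B, a flavin reductase abundant in red cells. It had 349, 402 and 177 CPM in the control libraries and 254, 328 and 391 CPM in the fasted libraries. The fasted values lay within the control range, with log2 fold changes of 0.07 (SE 0.27, adjusted p 0.877 in edgeR) and 0.62 (SE 0.28, adjusted p 0.264 in edgeR) in the same order of fits.

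Tspo2 (ENSMUSG00000023995.12, chromosome 17, 48447907 to 48451522, minus strand) encodes an erythroid relative of the mitochondrial translocator protein. It had 115, 111 and 59.3 CPM in the control libraries 1, 2 and 3 and 77.9, 89.3 and 105 CPM in the fasted libraries 1, 2 and 3. Again the fasted values lay within the control range. The log2 fold change was -0.07 (SE 0.25, adjusted p 0.870 in edgeR) over all genes and 0.48 (SE 0.22, adjusted p 0.260 in edgeR) in the fit of genes above background.

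**Figure D4:**
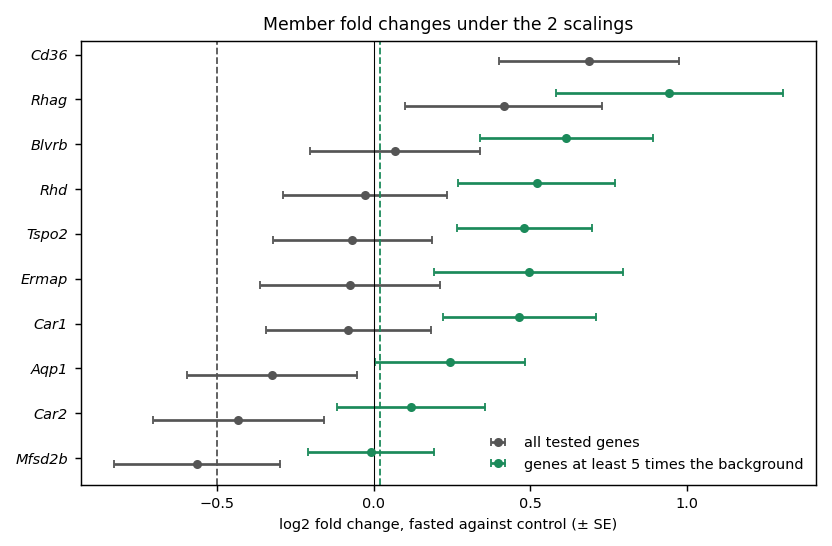
Log2 fold change of each member, fasted against control, with its SE, in the all-gene fit (grey) and the fit of genes at or above 5 times the background (green, without Cd36). Dashed lines mark the median of the genes above background in each fit, -0.50 and 0.02; the order of the members is nearly the same in both fits.

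The order of the members by fold change was nearly unaffected by scaling, since new scaling factors shift every gene by about the same amount. Mfsd2b, Car2 and Aqp1 stood lowest and Rhag and Blvrb highest of the 9 genes in both fits. Set against the mean log2 count of the other 8 members within each library, Car2 was 3.39, 3.22 and 3.27 log2 units above them in the control libraries 1, 2 and 3 and 2.94, 3.07 and 2.87 above them in the fasted libraries 1, 2 and 3. Car2 was the only one of the 9 whose groups did not overlap on this measure, with a difference of -0.34. For any gene, groups of 3 and 3 libraries lie apart in 0.1 of all relabellings. The share of all genes with groups apart was not computed for this measure. Its Car2 values also use the counts of the Car1 to Car2 ratio. Mfsd2b had -0.02, -0.46 and -0.25 in the control libraries and -0.43, -0.63 and -1.03 in the fasted libraries, which overlapped narrowly. Rhag had -1.52, -1.15 and -1.21 in the controls and -1.35, -0.39 and -0.66 in the fasted libraries, overlapping through fasted library 1. This within-library measure was chosen after the values were seen and was given no test.

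Levels between members were compared per kilobase of exon. After Car1 and Car2 came Aqp1 with a mean of 284 RPKM, Blvrb with 114, Rhd with 113, Rhag with 98.6, Mfsd2b with 62.8, Ermap with 58.8, Tspo2 with 28.8 and Cd36 with 2.97 RPKM. Of the 9 pairs of neighbours in this order, 3 had separate ranges over the 6 libraries: Car2 and Aqp1, Aqp1 and Blvrb, and Tspo2 and Cd36. Car1 and Car2, and each pair of neighbours from Blvrb to Tspo2, had overlapping ranges. Within libraries, Ermap was above Tspo2 in 6 of 6, and Car1 was above Car2 in 5 of 6.

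Relatives of the members in the same protein families were mostly near the background. Of 29 listed relatives, 8 were at or above 5 times the background. The highest were Tspo, the ubiquitous translocator protein, with a mean of 307 RPKM, the second biliverdin reductase gene Blvra with 26.9, the aquaglyceroporin gene Aqp9 with 22.7 and the lipoprotein receptor gene Scarb1 with 18.5. Among the carbonic anhydrases, the next after Car1 and Car2 was Car9 with 4.21 RPKM. The Rh relatives Rhbg and Rhcg, which act in kidney and other epithelia, had 0.452 and 0.674 RPKM, inside the background range of 0.394 to 0.914 RPKM. Of the 28 relatives tested in the all-gene fit, 1 was called higher (1.15% of all genes) and 2 lower (3.82% of all genes), with a median of 0.17 against 0.32 over all genes. Tspo had a log2 fold change of -0.85, edgeR adjusted p 0.0423, and Car9 -1.57, edgeR adjusted p 0.0201. In the fit of genes above background these were -0.37 and -1.05, with edgeR adjusted p of 0.280 and 0.143. Aqp4 had 1.16, edgeR adjusted p 0.0496, and lay at 0.944 times the background.

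**Figure D5:**
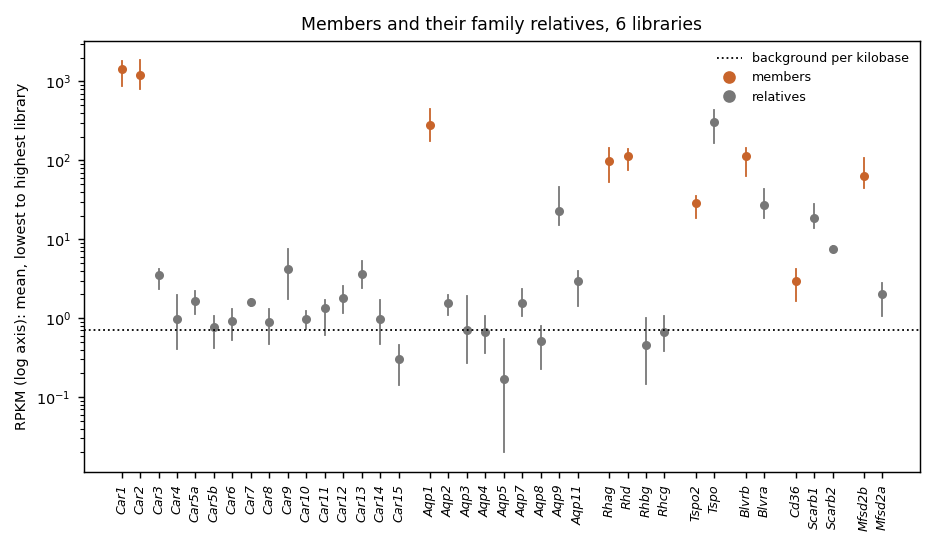
Mean RPKM (log axis, all-gene TMM scaling) of the members other than Ermap (orange) and their family relatives (grey). Lines run from the lowest to the highest of the 6 libraries, and the background per kilobase is dotted. A library at 0 (Aqp5) is drawn at a floor below the dotted line. Tspo is the highest of the 8 relatives with at least 3.5 RPKM, and every plotted member except Cd36 lies above 7 of these 8.

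Genes that act beside the members were described from lists. Of 28 other early erythroid genes, all 28 were at or above 5 times the background and 0 passed in either fit, with 20 of 28 log2 fold changes above 0 and a median of 0.28 in the fit of genes above background (-0.25 over all genes). The 4 with the highest RPKM were Atpif1, an inhibitor of the mitochondrial ATP synthase, with a log2 fold change of -0.61 over all genes and -0.09 in the other fit, Klf1, the erythroid transcription factor, with -0.63 and -0.05, Apoe, a lipoprotein component, with -0.95 and -0.40, and Prdx2, a red cell peroxidase, with -0.18 and 0.34. Of 18 genes of the band 3 and Rh membrane complex, 13 were at or above 5 times the background and 0 passed in either fit. Their median was 0.33 in the fit of genes above background and -0.13 over all genes, where 17 were tested. Bsg, Cd47 and Stom were among those with the highest levels, and Cd47, a membrane protein linked to the Rh complex, had -0.76 (edgeR adjusted p 0.0525) over all genes and -0.24 (edgeR adjusted p 0.287) in the other fit. Icam4, the gene of the Landsteiner-Wiener glycoprotein, was listed at 0 in every library.

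Partners of the members in haem breakdown, sphingosine-1-phosphate and lipid handling made up 18 genes, 11 of them at or above 5 times the background. In the all-gene fit 1 of 18 was called, as lower, against 3.82% of all genes. It was Hmox2, the constitutive haem oxygenase, which makes biliverdin. Hmox2 went from 72.5 CPM ± 6.59 (SD, n = 3) to 34.4 CPM ± 5.49 (SD, n = 3), a log2 fold change of -1.08, edgeR adjusted p 0.0277, and -0.57, edgeR adjusted p 0.143, in the fit of genes above background. The inducible Hmox1 was at 3.09 times the background. Sphk1, the kinase that makes the lipid exported through Mfsd2b, had a log2 fold change of 0.23 over all genes and 0.78 in the other fit (edgeR adjusted p 0.717 and 0.389), and S1pr4, a receptor of that lipid, had -0.48 and 0.06 (edgeR adjusted p 0.217 and 0.879).

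The markers of the sorted cells were present. All 10 listed progenitor genes had counts and 9 were at or above 5 times the background, led by Klf1, Gfi1b, Gata1 and Nfe2, with Zfpm1 at 4.44 times. They summed to 4171, 2504 and 1446 CPM in the control libraries 1, 2 and 3. The sums were 1414, 1668 and 1600 CPM in the fasted libraries 1, 2 and 3. In every library except fasted library 3 the sum of the 15 granulocyte and monocyte genes was higher. In the fit of genes above background 2 of the 9 had a log2 fold change above 0, against 52.3% of all genes. Nfe2 was the 1 of these 10 that passed in the all-gene fit, as lower, against 3.82% of all genes. Its log2 fold change was -1.32 (edgeR adjusted p 0.0405) there and -0.74 (edgeR adjusted p 0.241) in the other fit. Genes of other cells were measured in the same libraries. The megakaryocyte and platelet list summed to 417 to 706 CPM in control and 218 to 324 CPM in the fasted libraries, the mast cell and basophil list to 234 to 374 and 106 to 150.4 CPM, and the list of surface proteins of other progenitors and mature cells, led by Cd34 and Fcgr3, to 807 to 1020.4 and 309 to 587 CPM. On this scale 47.5% of the genes above background had groups apart with fasted lower. On the scale of genes above background the megakaryocyte sums were 394 to 512 and 280 to 377 CPM and the mast cell sums 198 to 292 and 136 to 181 CPM. Both were still apart, as were 13% of the genes above background with fasted lower on that scale. The surface protein sums were 683 to 965 and 397 to 708 CPM and overlapped. In the all-gene fit 3 of 11, 4 of 8 and 3 of 12 tested genes of these lists were called lower and none higher, against 3.82% and 1.15% of all genes. In the other fit 0 were called, where the test called 0% of all genes. The B and T lymphocyte, macrophage and late erythroblast lists overlapped between the groups on both scales and had 0 calls. The endothelial list also had 0 calls and overlapped on the all-gene scale. With the scaling of genes above background its sums were 123 to 146 CPM in control and 157 to 198 CPM in the fasted libraries. These were apart with fasted higher, as were 14.4% of the genes above background on that scale. The part of these lists in the members' values was not tested.

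Among 8516 other named genes, those whose levels over the 6 libraries were most like the mean of the 9 well-expressed members, on the scale of genes above background, were Lrrc20 (r = 0.997), Cad (0.995), Fam234b (0.993), Atp7b (0.993) and Mns1 (0.991). Lrrc20 had 30.7, 33.5 and 15.0 CPM in the control libraries 1, 2 and 3 and 27.3, 34.9 and 57.2 CPM in the fasted libraries 1, 2 and 3 on that scale. All points share their library's depth and scaling, so these values describe 6 libraries only.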

How the data were processed

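Gene-level raw counts of the 6 libraries were deposited by the authors in a single table, beside the exonic length of each gene. Per the submitters' processing notes the tools were HISAT2 2.2.1 and featureCounts 2.0.1 and the build was GRCm38; settings, annotation release and strand handling are not given in the sources used here. Reads of overlapping or near-identical genes may be lost or shared, depending on those settings; no member overlaps exons of another M21 gene. Symbols came from GENCODE M21 by identifier without version (55141 of 55487; 9 of 10 members also matched by version). Columns were matched to libraries through their descriptions and grouped by the treatment label.

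Here genes were kept with filterByExpr, scaled by TMM and tested with edgeR 4.0.16 in R 4.3.3 (robust quasi-likelihood, group as the only term, Benjamini-Hochberg adjustment). The SE is the log2 fold change divided by the square root of F. The background rate is the summed counts of 1466 receptor genes over their summed length; the second fit kept genes whose mean count over all 6 libraries was at least 5 times that rate times length. Total counts of 12797144 to 30246110 a library give members other than Cd36 at least 1211 counts per library; amplified reads are not independent molecules. Ratios were tested by two-sided exact permutation (scipy 1.17.1). The test was tried on simulated counts with a common dispersion and the same profile in every library, apart from genes changed on purpose. That setting leaves out the differences in background between these libraries, so the trial does not bear on them.

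The members and gene lists were chosen with earlier results of these data known. Named genes were all members, the 4 genes of each list of pathway genes with the highest RPKM and genes called in either fit, and the 5 genes whose pattern was most like the members; 1 gene this rule names is not reported here. Alternatives were DESeq2 1.42.0, limma-voom (limma 3.58.1), other factors and filters, background subtraction, the replicate number as a block, and leaving out each library.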

Additional observations from a re-analysis of the deposited data

How the results depend on the processing

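No alternative called a member, apart from 3 in the all-gene fit: 1 member lower without control library 3 (Mfsd2b), 1 higher with library totals alone and 1 higher with TMM factors from genes above background (Cd36 in both). Counts of members called lower thus ranged from 0 to 1 over the fits that left out a library. In the all-gene fit, library totals alone turned Car1 to 0.44, Car2 to 0.088, Ermap to 0.47, Aqp1 to 0.21, Tspo2 to 0.45 and Rhd to 0.49. TMM factors from genes above background turned the same genes to 0.47, 0.12, 0.50, 0.24, 0.48 and 0.52. Background subtraction turned Car1 to 0.22, Ermap to 0.24, Aqp1 to 0.0028, Tspo2 to 0.22 and Rhd to 0.27. DESeq2 and RLE factors each turned Blvrb to -0.14, and a minimum of 1 CPM in 3 libraries turned Rhd to 0.030. With libraries left out, Blvrb ran from -0.23 to 0.29, Car1 from -0.36 to 0.088, Ermap from -0.38 to 0.19, Rhd from -0.27 to 0.16 and Tspo2 from -0.33 to 0.079. In the fit of genes above background, Aqp1 then ran from -0.0086 to 0.44, Car2 from -0.12 to 0.28 and Mfsd2b from -0.24 to 0.21. With genes at least 2 times the background Car2 was -0.24 and Aqp1 -0.12; Mfsd2b was 0.075 with genes at least 10 times the background, 0.055 with library totals, 0.036 with limma-voom and 0.035 with the replicate block. The causes were not tested. The 2 ratios kept their direction under background subtraction and in every fit that left out a library.

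With the replicate number as a block, the all-gene fit called 146 genes instead of 1813, and no member; the block changed no member's call. The 3 same-numbered differences of both ratios were above 0 (p = 0.25, exact sign flips, the smallest possible). Deviations from the group means correlated at -0.16, 0.13 and -0.27 for the same-numbered libraries, so the numbers were not read as pairs. At 3 libraries a group, the SE of 0.20 to 0.36 on the members' log2 fold changes limits what can be told apart.

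Over all genes, the 420 higher and 1393 lower calls of the all-gene fit became 4296 and 291 with library totals, 4962 and 255 with TMM factors from genes above background, 358 and 5302 with DESeq2, 301 and 2672 with RLE factors, 786 and 1768 with a minimum of 1 CPM, 631 and 2218 without a filter, and 0 and 0 with background subtracted (4276 at an unadjusted p under 0.05). Leaving out a library gave from 0 and 7 (without fasted library 3) to 1476 and 3903 (without control library 3). The fit of genes above background called 0 genes (2115 at an unadjusted p under 0.05) and, with DESeq2, 325 higher and 176 lower. It called 512 higher and 1119 lower with genes at least 2 times the background. Without control library 1 it called 0 higher and 3 lower, and without control library 3 it called 1 higher and 2 lower.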
